A study of Mus musculus with 1024 samples.

Results

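The nuclear lamina and the LINC complex (linker of nucleoskeleton and cytoskeleton) were followed through 9 genes, Lmna, Lmnb1, Lmnb2, Sun1, Sun2, Syne1, Syne2, Emd and Lbr, chosen by name from the 24422 genes of the table and all present in it. The study asked how AmotL2, a scaffold protein of endothelial junctions, connects the junction to the nucleus, and sequenced single cells of mouse aorta with Smart-seq2, a full-length cDNA method without molecular identifiers. The labels give all mice one strain, Amotl2flow/flow / Cdh5-RREert /ROSA26-EYFP, and an age of 3 months, and name each well's genotype (WT or KO) with a sort number (sort 1 or sort 2). According to the methods this is a loxP-flanked amotl2 gene with a tamoxifen-inducible Cre under the Cdh5 promoter, which is active in endothelial cells (ECs), and an EYFP reporter of recombination. The methods state that tamoxifen induced the KO, and how the WT mice were treated was not given in the sources used here. The lumen of perfused aortas was digested with collagenase I, dispase and DNase, Cd45+ cells were removed with beads, and viable Cd31+Cd45- cells (labelled Endothelial) and Cd31-Cd45- cells (labelled DoubleNegative, sorted as controls) were sorted into wells. Aortas of 12 mice, 6 per genotype, were used in 2 independent experiments and no well is labelled with its mouse, so the sort was the replicate, with n = 2 per genotype and gate. In sort 2 WT and KO shared a plate, whereas in sort 1 each genotype had a plate of its own, and a plate difference there cannot be told apart from genotype.

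Lamins are intermediate filament proteins that form a meshwork beneath the inner nuclear membrane. Lmna encodes lamins A and C, and Lmnb1 and Lmnb2 encode the B-type lamins, which stay attached to the membrane by a farnesyl group. The SUN proteins (Sun1, Sun2) span the inner nuclear membrane, bind lamin A on the inside and the KASH domains of nesprins in the space between the membranes, and the giant nesprins 1 and 2 (Syne1, Syne2) reach from the outer membrane to actin. Emerin (Emd) and the lamin B receptor (Lbr) are inner nuclear membrane proteins that tie the lamina to chromatin, and lamin A/C and the lamin B receptor are known as the main anchors of heterochromatin at the nuclear edge. This chain is known for coupling actin to the nuclear lamina. The paper proposes that in arterial ECs AmotL2 connects the junctions to it.

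Of the Cd31+ and Cd31- wells, those holding 20000 or more gene counts and 500 or more genes were kept, that is, 676 of 896 Cd31+ wells and 108 of 128 Cd31- wells. Their counts were added up per genotype, gate and sort into 8 sums of 926398 to 94881185 counts, and levels are given as CPM, a gene's counts scaled to the same total for every sum. The smallest sums were those of the Cd31- gate in sort 2, with 12 WT and 14 KO wells, and 1 well held 17.7% of the counts of the WT Cd31+ sum of sort 2. By marker counts 654 of the 676 Cd31+ wells were EC-like, and of the Cd31- wells 70 were smooth muscle-like, 37 fibroblast-like and 1 EC-like. Amotl2, the targeted gene, stood at 59.9 and 94.0 CPM in the WT and 51.9 and 45.7 CPM in the KO Cd31+ sums (sort 1 and sort 2), a difference that missed the threshold (log2 fold change -0.66, SE 0.32, edgeR adjusted p = 1.00); counts per gene do not resolve a deleted exon. EYFP stood at 113 and 85.5 CPM in the KO and at 2.38 and 0.353 CPM in the WT Cd31+ sums and had no count in the Cd31- gate. The paper states for its mice as a whole that both sexes were included, and the sex of these mice is not given. A count of a Y-linked gene was found in 77.5% to 94.0% of the Cd31+ wells of a sum.

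On GRCm38 (GENCODE M21) Lmna lies at chr3:88480147-88509956 on the minus strand and Lmnb2 at chr10:80901203-80918245 on the minus strand. Sun1 lies at chr5:139200637-139249840 on the plus strand and Sun2 at chr15:79724070-79742536 on the minus strand. Syne1 spans chr10:5020917-5551482 on the minus strand and Syne2 chr12:75818134-76110926 on the plus strand. Emd lies at chrX:74254687-74261548 on the plus strand and Lbr at chr1:181815335-181843046 on the minus strand. The merged exons ran from 2517 bases for Emd to 26726 for Syne2 and 40491 for Syne1, so levels of different genes are set side by side only as CPM per kilobase of exon. Syne2 shared 10 exon bases with the microRNA gene Mir5101, and no other member shared exon bases with a counted gene. Counts per gene do not separate lamin A from lamin C or giant from short nesprins, and a short nesprin would be understated per kilobase.

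Lmna and Lbr differed between the gates in opposite directions, with the smallest adjusted p of the members, and the sequences before their RefSeq starts are shown to let a reader compare them. RefSeq (GRCm38.p6) windows were read for 8 of the 9 members, and Lmnb1 was left out by choice. The Lmna line is its first listed start at chr3:88503387-88503602 and holds the 216 bases left after 34 bases that GENCODE counts as exon were cut off, and the Lbr line is the 250 bases at chr1:181842402-181842651, both 5′ to 3′ on the minus strand. Both stretches lie inside the GENCODE spans of their genes given above, so some annotated transcripts begin further upstream. Capitals mark CCAAT and GGGCGG, searched on both strands.
Lmna: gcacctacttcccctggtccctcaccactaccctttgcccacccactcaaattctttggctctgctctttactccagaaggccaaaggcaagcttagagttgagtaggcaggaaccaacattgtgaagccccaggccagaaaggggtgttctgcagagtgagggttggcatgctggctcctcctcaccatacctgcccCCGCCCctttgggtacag
Lbr: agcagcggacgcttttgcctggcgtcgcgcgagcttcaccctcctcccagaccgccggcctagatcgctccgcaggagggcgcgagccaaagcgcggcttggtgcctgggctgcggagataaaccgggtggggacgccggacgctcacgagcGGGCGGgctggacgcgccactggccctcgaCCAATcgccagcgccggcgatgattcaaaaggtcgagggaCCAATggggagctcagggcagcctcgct
The Lbr window held 2 CCAAT matches and 1 GGGCGG match, and the Lmna stretch held 1 GGGCGG match, read on the other strand. A second Lmna window, at chr3:88493313-88493562, held 1 CCAAT match and no GGGCGG. Among the 13 windows of these 8 members 6 held CCAAT and 8 held GGGCGG, against 33.9% and 32.7% of all 32851 windows. G and C made up 69.6% of the Lbr window and 56.4% and 52.8% of the Lmna windows before trimming, with a median of 52.4% over all windows.

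The first comparison asked how the members differ between ECs and the other cells of the aortic wall. Of the 9 members, 1 was higher in the Cd31+ gate (Lbr) and 3 were lower (Lmna, Sun2 and Syne1), in an edgeR quasi-likelihood fit of all 8 sums with a Benjamini-Hochberg adjusted p over 12729 genes. The same fit called 9.79% of all genes higher and 9.25% lower in Cd31+. The median log2 fold change was 0.15 over the members and 0.15 over all genes tested, and other scalings placed the median of all genes between -0.08 and 0.38. A sum alone does not tell fewer wells with the RNA from less RNA per well, so for Lmna and Lbr the share of wells and the median level of the wells with a count are given too.

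Lmna was the member with the highest level of the Cd31- gate. It stood at 152 CPM (sort 1) and 130.2 CPM (sort 2) in the WT Cd31+ sums and at 144 and 132 CPM in the KO Cd31+ sums. In the Cd31- gate it stood at 421 and 601 CPM in WT and at 559 and 416 CPM in KO. All 4 Cd31- sums were above all 4 Cd31+ sums, and the mean of the Cd31- sums was 3.58-fold that of the Cd31+ sums (499 ± 95.1 against 139 ± 10.3 CPM, SD, n = 4). The log2 fold change of Cd31+ over Cd31- was -1.95 (SE 0.26, edgeR adjusted p = 0.00126), and it was past the threshold under all 17 alternatives (-2.06 to -1.80). A count of Lmna was found in 79.5% to 94.0% of the Cd31+ wells and in 97.6% to 100% of the Cd31- wells of a sum. With every well thinned to 20000 counts these shares were 59.3% to 74.2% and 83.3% to 100%, so they did not overlap after thinning either. In wells with at least 100000 counts they met, since both Cd31+ sums of sort 2 and all 4 Cd31- sums were at 100%. The median level of the wells with a count was 88.5 to 124 CPM in the Cd31+ sums and 252 to 634 CPM in the Cd31- sums, without overlap.

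Lbr showed the opposite order. It stood at 146 and 213 CPM in the WT and at 187 and 221 CPM in the KO Cd31+ sums. In the Cd31- gate it stood at 27.6 and 36.4 CPM in WT and at 49.3 and 47.5 CPM in KO. Each Cd31+ sum was above each Cd31- sum, and the mean was 4.77-fold higher (192 ± 33.8 against 40.2 ± 10.2 CPM, SD, n = 4). The log2 fold change was 2.18 (SE 0.28, edgeR adjusted p = 0.00110), past the threshold under all 17 alternatives (1.67 to 2.91). The value of 2.91 came from smooth muscle-like Cd31- wells, a choice made after seeing the data. A count of Lbr was found in 70.5% to 92.1% of the Cd31+ wells and in 32.5% to 50% of the Cd31- wells of a sum, and after thinning in 58.9% to 82.0% and 19.05% to 35.7%. The median level of the wells with a count was 140.4 to 193 CPM in Cd31+ and 31.6 to 139.8 CPM in Cd31-. In the Cd31- sums 1 well held 24.9% to 55.6% of the Lbr counts, and without it the WT sums were at 15.02 and 16.9 CPM and the KO sums at 38.4 and 31.9 CPM. In WT sort 2 that well, at 518 CPM, was the EC-like one. By the rule that the 4 sums of a gate lie wholly on one side of the other 4, Lbr was the 1 member above (17.3% of all genes), and Lmna and Syne1 were the 2 members below (8.98% of all genes).

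**Figure D1:**
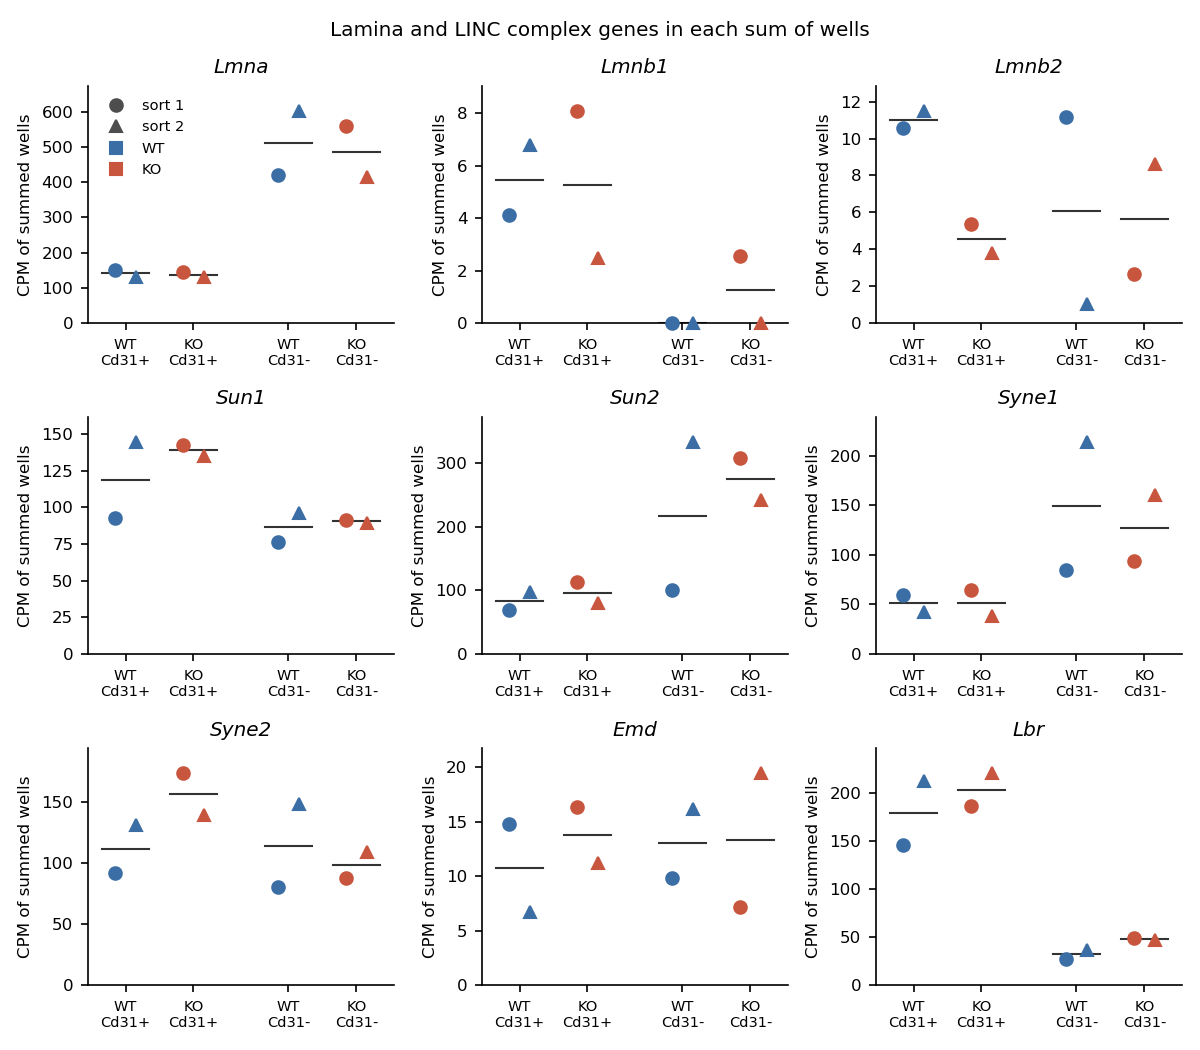
Level of each gene (y axis, CPM of the summed wells, from 0) in WT and KO sums of the Cd31+ and Cd31- gates. Circles are sort 1, triangles sort 2 and lines the mean of the 2 sorts. Lmna lies between 130.2 and 152 CPM in Cd31+ and between 416 and 601 CPM in Cd31-, and Lbr lies the other way round.

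The LINC complex members did not move as one. Sun2 was lower in Cd31+, with 68.9 and 98.2 CPM in WT and 113 and 79.9 CPM in KO, against 100.1 and 333 CPM (WT) and 308 and 242 CPM (KO) in the Cd31- gate. Only the WT Cd31- sum of sort 1 came down into the range of the Cd31+ sums. The log2 fold change was -1.56 (SE 0.39, edgeR adjusted p = 0.0238). Sun1, the other SUN protein gene, stood at 92.7, 144, 143 and 135 CPM in the Cd31+ sums (WT sort 1 and 2, KO sort 1 and 2) and at 76.7, 96.2, 91.3 and 89.6 CPM in the Cd31- sums. Its difference missed the threshold (log2 fold change 0.42, SE 0.26, edgeR adjusted p = 0.323), although within each genotype and sort the Cd31+ sum was the higher one, in 4 of 4.

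Syne1 (nesprin-1) was lower in Cd31+, with 60.0 and 42.8 CPM in WT and 64.7 and 38.4 CPM in KO, against 84.6 and 214 CPM (WT) and 93.9 and 161 CPM (KO) in the Cd31- gate. The gates did not overlap, and the log2 fold change was -1.53 (SE 0.39, edgeR adjusted p = 0.0258). Syne2 (nesprin-2) stood at 91.9, 131, 173 and 139 CPM in the Cd31+ sums and at 79.9, 148, 87.5 and 109 CPM in the Cd31- sums, with a log2 fold change of 0.21 (SE 0.30, edgeR adjusted p = 0.702). The calls of Sun2 and Syne1 were lost when any 1 of the 4 Cd31+ sums was left out (adjusted p of 0.0662 to 0.0986 for Sun2 and 0.0609 to 0.115 for Syne1), while the log2 fold changes were -1.67 to -1.44 for Sun2 and -1.70 to -1.38 for Syne1. That of Sun2 was also lost without the KO Cd31- sum of sort 1 (adjusted p = 0.0643), and that of Syne1 without the Cd31- sum of sort 2 of WT (0.0575) or of KO (0.0720). Without the WT Cd31- sum of sort 2 the log2 fold change of Sun2 was -0.99 (adjusted p = 0.0319) and that of Syne1 -1.12.

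The Cd31- gate was a mixture, and Sun2 and Syne1 differed within it. The WT sum of sort 1 had 26 fibroblast-like and 16 smooth muscle-like wells, whereas smooth muscle-like wells were the majority in the other 3 sums (10 of 12, 31 of 40 and 13 of 14), and in no well were the marker sums of the 2 classes within 2-fold of each other. Syne1 stood at 193, 233, 117 and 183 CPM in the smooth muscle-like wells of WT sort 1, WT sort 2, KO sort 1 and KO sort 2. In the 2 sums with more than 1 fibroblast-like well it stood at 19.96 CPM (WT sort 1, 26 wells) and 18.8 CPM (KO sort 1, 9 wells) in those wells. Sun2 likewise stood at 230.1, 364, 378 and 253 CPM in the smooth muscle-like wells and at 22.6 and 78.3 CPM in the fibroblast-like wells. Both genes were thus higher in smooth muscle-like than in fibroblast-like wells of the same sum, and in fibroblast-like wells below the Cd31+ sums of the same genotype and sort. Lmna was at 461 to 615 CPM in smooth muscle-like wells and at 375 and 608 CPM in the fibroblast-like wells of those 2 sums, so both classes were above the Cd31+ sums. Lbr was at 12.5 to 47.2 CPM in smooth muscle-like wells and at 36.6 and 56.3 CPM in fibroblast-like wells.

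In a fit added after seeing these values, Cd31+ wells with EC markers were set against smooth muscle-like Cd31- wells only. All 4 genes were past the threshold, with log2 fold changes of -2.06 for Lmna, -1.87 for Sun2, -1.92 for Syne1 and 2.91 for Lbr (SE 0.21, 0.27, 0.29 and 0.29, edgeR adjusted p of 7.4e-05, 0.000764, 0.00106 and 7.9e-05). Sun2 and Syne1 had been seen to be high in these wells, and Lbr to be lower there than in fibroblast-like wells of sort 1. Their larger differences here follow from the choice of wells. Since the wells were chosen after the values were seen, the results of all 4 genes in this fit are descriptions. Sun1 stayed at 0.40 (SE 0.27, edgeR adjusted p = 0.328) and Syne2 at -0.02 (SE 0.24, edgeR adjusted p = 0.964). With fibroblast-like wells in 2 usable sums of sort 1 alone, no such test was made for them.

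**Figure D2:**
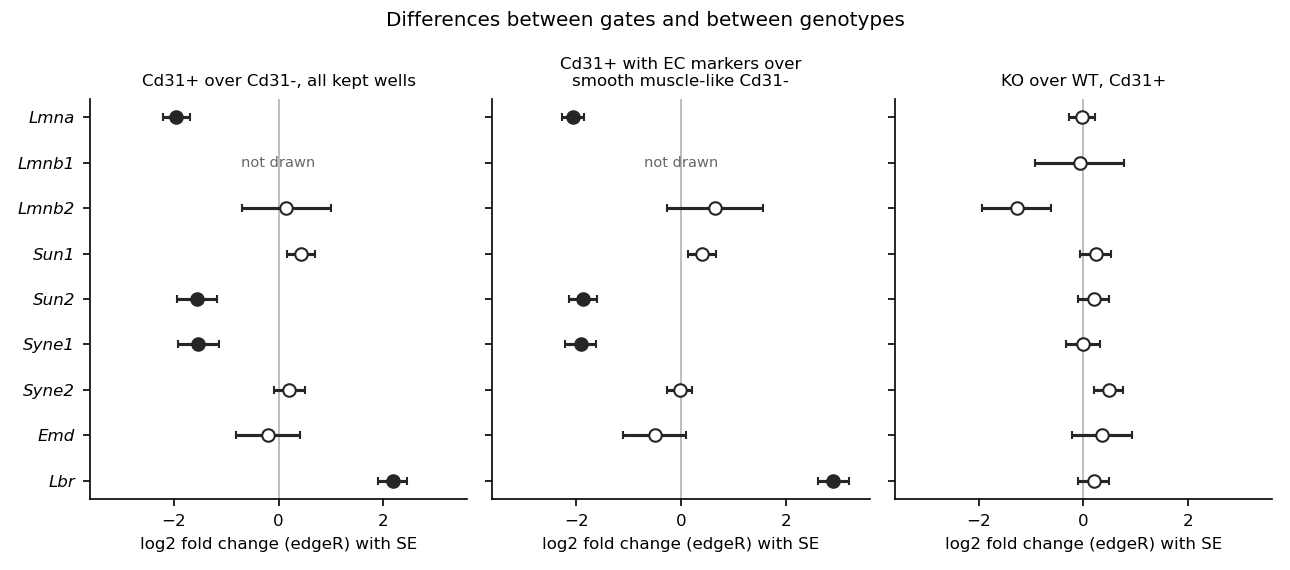
edgeR log2 fold change (x axis) with its SE of each member for Cd31+ over Cd31- with all kept wells, for Cd31+ wells with EC markers over smooth muscle-like Cd31- wells, and for KO over WT within Cd31+. Filled points have an adjusted p under 0.05. Lmna, Sun2, Syne1 and Lbr are filled in both gate panels and no point is filled for genotype. Lmnb1 is not drawn for the gates, since 3 of its 4 Cd31- sums are at 0.

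The B-type lamins and emerin were low in both gates. Lmnb1 stood at 4.11 and 6.79 CPM in the WT and at 8.06 and 2.48 CPM in the KO Cd31+ sums, from 164, 77, 765 and 21 counts. In the Cd31- gate it had 24 counts in 2 wells of KO sort 1, 23 of them in 1 well, and none in the other 3 sums, where 3 counts would have been 0.452 CPM (WT sort 1), 3.04 CPM (WT sort 2) and 3.24 CPM (KO sort 2). A count was found in 7.23% to 16% of the Cd31+ wells of a sum, and 0 of 42, 12 and 14 Cd31- wells allow a share of up to 7.14%, 25.0% and 21.4%, counted as 3 wells of the total (exact 95% upper limits 8.41%, 26.5% and 23.2%). The edgeR adjusted p between the gates was 0.0619, and it was past the threshold without a filter on low counts (0.0434) and with DESeq2 (0.0231); no fold change is given because it depends on the prior count of the fit. Lmnb2 stood at 10.6, 11.5, 5.36 and 3.78 CPM in the Cd31+ sums and at 11.2, 1.01, 2.65 and 8.64 CPM in the Cd31- sums, with a log2 fold change of 0.15 (SE 0.85, edgeR adjusted p = 0.935). Emd stood at 14.8, 6.71, 16.4 and 11.2 CPM in Cd31+ and at 9.80, 16.2, 7.21 and 19.4 CPM in Cd31- (log2 fold change -0.19, SE 0.61, edgeR adjusted p = 0.872). Single wells carried much of these low values: 1 well held 52.3% to 66.7% of the Emd counts of each Cd31- sum.

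**Figure D3:**
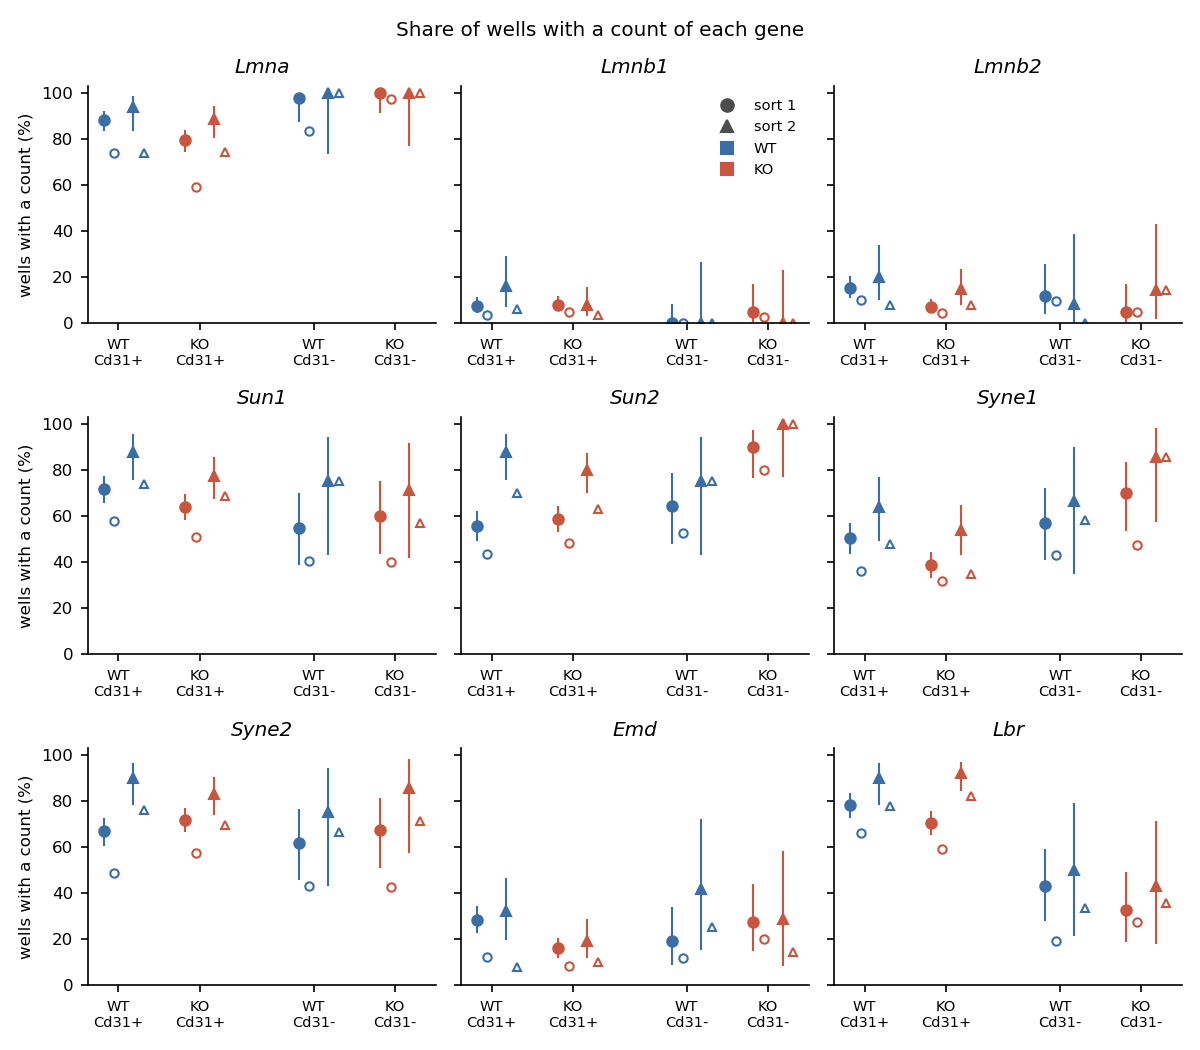
Share of kept wells with a count of each gene (y axis, %) by genotype, gate and sort. Filled symbols are all counts with 95% exact binomial intervals, and open symbols are the same wells thinned to 20000 counts. For Lbr the Cd31+ shares (70.5% to 92.1%) lie above the Cd31- shares (32.5% to 50%), and the shares of Lmnb1 are at most 16%.

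Per kilobase of exon the order of the members differed between the gates. In the Cd31+ sums Lbr led with 40.3 ± 7.10 CPM per kilobase (SD, n = 4), above Lmna with 23.9 ± 1.76, and Sun1 (16.95 ± 3.21) and Sun2 (16.6 ± 3.61) followed below Lmna. Sun1 and Sun2 overlapped, and so did each pair of neighbours among Syne2 (5.004), Emd (4.87), Lmnb2 (1.82), Lmnb1 (1.81) and Syne1 (1.27). In the Cd31- sums Lmna led with 85.5 ± 16.3 CPM per kilobase, then Sun2 with 45.4 ± 19.3, without overlap between Lmna and Sun2 or between Sun2 and Sun1 (11.6 ± 1.09). From Sun1 on every neighbour overlapped, in the order Lbr (8.44), Emd (5.23), Syne2 (3.97), Syne1 (3.41), Lmnb2 (1.37) and Lmnb1 (0.215). Lbr was thus at rank 1 in ECs and rank 4 in the Cd31- gate.

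Ratios of paired members, chosen after their values were seen and given as descriptions, put the same data on one scale. Lmna per kilobase was 0.847- and 0.498-fold Lbr in the WT and 0.628- and 0.486-fold in the KO Cd31+ sums, and 12.4-, 13.5-, 9.24- and 7.14-fold in the Cd31- sums. The Sun1 to Sun2 ratio was 0.901 to 1.21 in Cd31+ and 0.206 to 0.547 in Cd31-, so the 2 SUN genes were close to even in the Cd31+ sums and Sun2 was ahead in the Cd31- sums. The Syne2 to Syne1 ratio was 2.32 to 5.49 in Cd31+ and 1.03 to 1.43 in Cd31-. Syne2 RNA was thus ahead of Syne1 RNA in the Cd31+ sums, per kilobase and in CPM alike. In each Cd31- sum Syne1 had the higher CPM, so which of them leads there depends on the exon length used. No ratio overlapped between the gates. Lmna to Lbr was 9.40 to 32.4 in smooth muscle-like wells, and 8.36 (WT sort 1) and 8.81 (KO sort 1) in fibroblast-like wells. The 1 fibroblast-like well of KO sort 2 was at 0.453. For the other 2 ratios the Cd31- classes were apart in WT sort 1. Sun1 to Sun2 was 0.203 to 0.253 in the smooth muscle-like wells of the 4 sums. It was 2.63 in the 26 fibroblast-like wells of WT sort 1 and 0.305 in the 9 of KO sort 1. Syne2 to Syne1 was 0.966 to 1.42 in the smooth muscle-like wells, and in the fibroblast-like wells it was 3.56 (WT sort 1), inside the Cd31+ range, and 1.33 (KO sort 1).

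**Figure D4:**
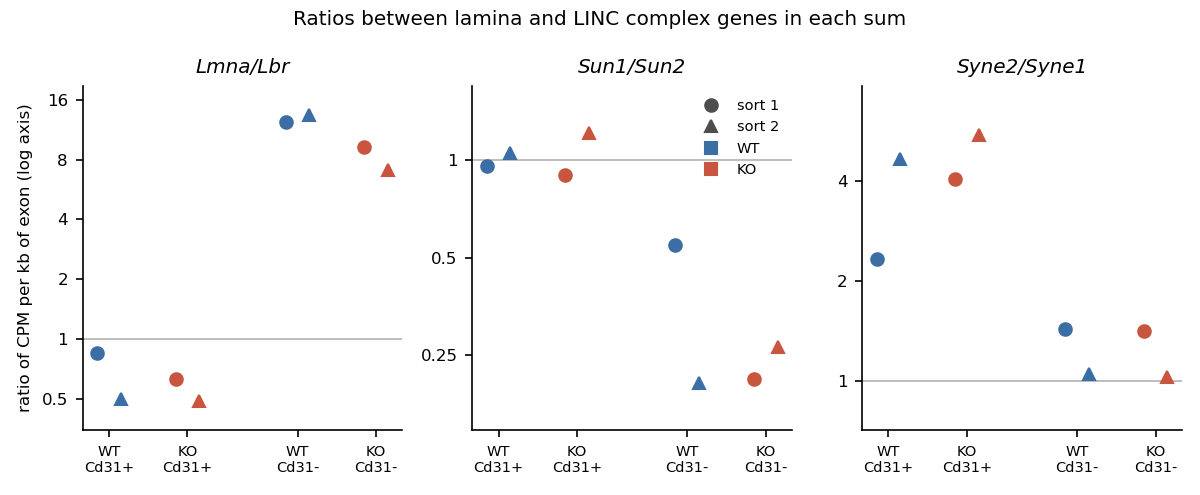
Ratio of CPM per kilobase of exon (y axis, log scale) between Lmna and Lbr, Sun1 and Sun2, and Syne2 and Syne1 in each of the 8 sums, with circles for sort 1, triangles for sort 2 and a grey line at 1. Lmna/Lbr is 0.486 to 0.847 in Cd31+ and 7.14 to 13.5 in Cd31-, and the other 2 ratios fall from Cd31+ to Cd31-.

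The opposite order of Lmna and Lbr was also visible in single wells, which are not replicates. Both genes had a count in 454 of the 676 Cd31+ wells (67.2%), Lmna alone in 119 (17.6%), Lbr alone in 70 (10.4%) and neither in 33 (4.88%). In the Cd31- gate both had a count in 43 of 108 wells (39.8%), Lmna alone in 64 (59.3%) and neither in 1, and 0 of 108 wells had Lbr alone, which allows a share of up to 2.78%, counted as 3 wells of the total. Among wells with either gene, Lmna per kilobase was above Lbr in 29.2% to 49.1% of the Cd31+ wells and in 90.2% to 100% of the Cd31- wells of a sum.

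**Figure D5:**
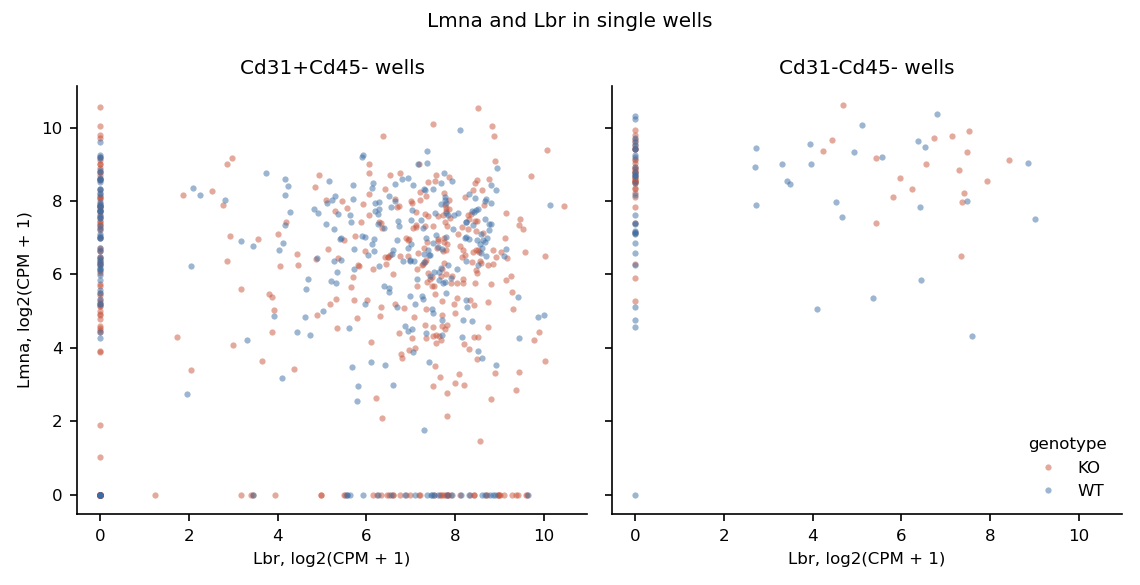
Lmna (y axis) against Lbr (x axis) in each kept well, both as log2(CPM + 1), for 676 Cd31+ wells and 108 Cd31- wells coloured by genotype. Points on an axis had no count of the other gene. Of the Cd31+ wells 70 lie on the Lbr axis, of the Cd31- wells 0.

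The second comparison asked whether the members differ between KO and WT ECs. None of the 9 members was called in the edgeR fit of the 4 Cd31+ sums, in which 0 of 12702 genes (0%) passed, 468 had an unadjusted p under 0.05, and DESeq2 called 12 genes higher and 43 lower, no member among them. The SE of the log2 fold changes ran from 0.25 for Lmna to 0.85 for Lmnb1, and in counts simulated for this comparison the test recovered 0% of genes changed by 1, 1% of those changed by 2 and 47% of those changed by 3 on the log2 scale. So the absence of a call does not show that the levels were equal. The simulation gave every gene the same spread, so its rates need not hold for a single member. For the gates it recovered 6% of genes changed by 2, while the real fit called Lmna at -1.95.

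Lmnb2 had the largest difference among the members. It stood at 10.6 and 11.5 CPM in WT and at 5.36 and 3.78 CPM in KO, 0.507-fold in sort 1 and 0.329-fold in sort 2, with a log2 fold change of -1.27 (SE 0.66, edgeR p = 0.0838, adjusted p = 1.00). In WT sort 2, 1 well held 39.2% of the Lmnb2 counts, and KO sort 2 rested on 32 counts. Without the well with the most counts of each sum, it was at 8.82 and 7.20 CPM in WT and 4.29 and 3.085 CPM in KO. The share of Cd31+ wells with a count was 15.3% and 20% in WT and 6.95% and 14.6% in KO, and 9.79% and 8% against 4.30% and 7.87% after thinning. The unthinned share was also lower in KO in both sorts for Lmna, Sun1, Syne1 and Emd, and differed in direction between the sorts for the other members. The median number of genes per Cd31+ well was 3774 and 5501.5 in WT and 3314 and 4505 in KO. The summed level of 10 cell cycle genes was 162 and 193 CPM in WT and 93.1 and 81.0 CPM in KO, and that of 10 genes raised by tissue dissociation 3187 and 5947 CPM in WT and 2844 and 2561 CPM in KO. Smooth muscle markers summed to 1127 and 707 CPM in WT and 1572 and 822 CPM in KO, all far below the 20365 to 51919 CPM of the Cd31- sums. Fibroblast markers summed to 143 and 108 CPM in WT and 334 and 188 CPM in KO, without overlap, against 2746 to 27564 CPM in the Cd31- sums. Their part in the Lmnb2 values was not tested.

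Syne2 was the other member whose genotypes did not overlap, with 91.9 and 131 CPM in WT and 173 and 139 CPM in KO (log2 fold change 0.48, SE 0.28, edgeR p = 0.120, adjusted p = 1.00). By that rule 2 of 9 members did not overlap, against 29.5% of all genes. The KO to WT ratio of Syne2 was 1.88 in sort 1, on separate plates, and 1.06 in sort 2, on one plate. The other differences lay between -0.07 for Lmnb1 and 0.35 for Emd. Lmna was at -0.03 (SE 0.25), Syne1 at -0.0048 (SE 0.33), Sun1 at 0.23 (SE 0.30), Sun2 at 0.20 (SE 0.30) and Lbr at 0.20 (SE 0.30), all with an edgeR adjusted p of 1.00. For Lmna, Lmnb1, Sun1, Sun2 and Syne1 the sign differed between sort 1 and sort 2. The 14 alternatives, among them KO wells with an EYFP count only, called no member either.

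In the Cd31- gate, where Cdh5 does not drive Cre by design, no member was called between KO and WT (0 of 12729 genes, 0%, with 1130 at an unadjusted p under 0.05, and 65 higher and 135 lower with DESeq2, no member among them). Lbr was the 1 member whose genotypes did not overlap (26.3% of all genes), at 27.6 and 36.4 CPM in WT and 49.3 and 47.5 CPM in KO, sums in which 1 well held up to 55.6% of its counts, with a log2 fold change of 0.64 (SE 0.39, edgeR adjusted p = 0.686). The genotype by gate interaction also called no member (0 of 12729 genes, 0%, with 657 at an unadjusted p under 0.05, and 41 higher and 12 lower with DESeq2, no member among them). Its log2 values were 0.01 for Lmna (SE 0.50), 0.66 for Syne2 (SE 0.60), -0.44 for Lbr (SE 0.54) and -1.01 for Lmnb2 (SE 1.69).

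Genes that work with the members were read from lists, and no listed gene was called between KO and WT Cd31+ sums. Between the gates, none of the 5 genes of lamin processing, such as the protease Zmpste24, was called, and none of the 6 tested genes of the other LINC proteins and the torsins. Of 8 partners at the inner nuclear membrane 1 was higher in Cd31+, Tmpo, which encodes the lamin-binding LAP2 proteins (log2 fold change 1.76, SE 0.29, edgeR adjusted p = 0.00395), and 1 was lower, Tmem43 (-1.82, SE 0.30, edgeR adjusted p = 0.00416), a binding partner of emerin. Tmpo stood at 148 to 190.2 CPM in Cd31+ and 30.9 to 62.8 CPM in Cd31-, and Tmem43 at 58.8 to 107 CPM against 227 to 332 CPM. Of 7 cytoplasmic partners of nesprins, Plec, the plectin gene that links nesprins to intermediate filaments, was higher (1.44, SE 0.34, edgeR adjusted p = 0.0202). Of 23 nuclear pore genes Nup160 (2.46, SE 0.48) and Nup98 (1.15, SE 0.34) were higher, with edgeR adjusted p of 0.00864 and 0.0448, and none was lower. With 9.79% of all genes called higher and 9.25% lower, these counts, 2 of 23 among them, were near the background. The median log2 fold change was 0.14 for lamin processing, 0.40 for the other LINC and torsin genes, 0.36 for the inner membrane partners, 0.53 for the nesprin partners and 0.16 for the pore genes, beside 0.15 over all genes.

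Markers and sample state moved with the gate as well, and their part in the members' differences was not tested. All 8 endothelial markers were higher and all 5 smooth muscle and 5 fibroblast markers lower in Cd31+, and the 6 leukocyte markers summed to 0 to 3.27 CPM, nearly all of it Cd68, with Lyz2, Cd3e, C1qa and Itgam at 0 in every sum and Ptprc at 0 in 7 of the 8. The endothelial markers summed to 10445 to 11990 CPM in Cd31+ and to 24.8 to 723 CPM in Cd31-, with the highest value in the WT Cd31- sum of sort 2, which held the EC-like well. Of 10 dissociation genes 3 were lower in Cd31+ (Fos, Egr1 and Atf3), and their list summed to 2561 to 5947 CPM in Cd31+ and 4256 to 11463 CPM in Cd31-. Of 10 cell cycle genes 2 were higher in Cd31+: Cenpf, at 0.118 to 26.8 CPM against at most 0.106 CPM, and Mcm2, at 10.6 to 28.5 CPM against 0 to 12.1 CPM.

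Across the 8 sums the member most like Lmna in its log2(CPM + 1) was Syne1 (Pearson r = 0.865) and the one least like it Lbr (r = -0.952). Lbr was most like Sun1 (r = 0.870), and Sun2 most like Lmna (r = 0.844). Among 8777 other genes of at least 10 CPM on average, the closest to Lmna was Klhl23 (r = 0.996), to Lbr F2r (r = 0.992), to Sun2 B3galnt2 (r = 0.992), to Syne1 Gcdh (r = 0.978) and to Sun1 Cpne1 (r = 0.973). For Lmnb1 it was Bub3 (0.987), for Lmnb2 Slc25a51 (0.962), for Emd Tm2d3 (0.947) and for Syne2 Pam (0.919). The 8 points share libraries and fall into the 2 gates, so these values are descriptions.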

How the data were processed

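Wells were sequenced by Smart-seq2. Per the labels and methods, reads were aligned with STAR 2.7.7a to GRCm38 with the ERCC spike-ins and EYFP, duplicates were removed with Picard 2.22.0, and the authors deposited whole-number counts per gene from HTSeq 0.9.1. Removing duplicates without molecular identifiers can lower the counts of abundant genes. The p-values measure the spread between the 2 sorts, and intervals and floors cover counting error only. Genes took 51.9% of the counts in the table, spike-ins 1.25% and 5 summary lines 46.9%. Spike-ins and summary lines were left out. Doublets were not called. Single cells were sorted into the wells, and whether each well held 1 cell was not tested.

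Wells with at least 20000 gene counts and 500 genes were summed per genotype, gate and sort, and no sum was dropped. Sums were fitted with edgeR 4.0.16 (TMM, quasi-likelihood, R 4.3.3) on genes passing filterByExpr, with Benjamini-Hochberg adjusted p under 0.05 as the threshold. The genotype comparison used the 4 Cd31+ sums. The gate comparison, the Cd31- genotype comparison and the interaction used all 8 sums. The SE is the absolute log2 fold change over the square root of F. Levels per kilobase used merged GENCODE M21 exons. Thinned shares drew 20000 counts per well. The text names the 9 members, the called genes of each list and the gene most like each member, of at least 10 CPM on average. DESeq2 1.42.0 was an alternative. The fits were tested on simulated data. The members and gene lists were chosen with earlier results of these data known.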

Additional observations from a re-analysis of the deposited data

How the results depend on the processing

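Lmna and Lbr kept their direction and stayed past the threshold in the gate comparison under all 17 alternatives. Leaving out 1 sum at a time gave 2 to 4 members and 1355 to 2542 genes called, with 2 members and 1355 to 1496 genes when a Cd31+ sum was left out. Sun2 was lost with the deepest well of each sum left out (adjusted p = 0.0512) and Syne1 in wells with at least 100000 counts (0.0599). In those wells Lmnb2 was at -0.27 and Emd at 0.39, and against smooth muscle-like wells Syne2 was at -0.023. Over the sums left out in turn Lmnb2 ranged from -0.24 to 1.51 and Emd from -0.55 to 0.26. Thinned wells gave no value for Lmnb1 and Lmnb2 in this comparison. None of the differences that changed sign had passed the threshold.

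Between KO and WT Cd31+ sums no alternative called a member. The number of genes called was 1 with the replicate block, RLE factors, marker-matching wells, the deepest wells left out or KO wells with EYFP, 8 with thinned wells, 55 with DESeq2 and 104 without a filter. It was 5 to 311 with 1 sum left out: 311 without WT sort 1, 221 without WT sort 2, 5 without KO sort 1 and 35 without KO sort 2. A fit that leaves 1 sum on a side assumes that the lone sum varies like the pair. In wells with at least 100000 counts Lmna was at 0.013 and Syne1 at 0.033. With 1 sum left out the log2 values ranged from -0.11 to 0.059 for Lmna, -1.03 to 0.48 for Lmnb1, -0.075 to 0.61 for Sun1, -0.055 to 0.50 for Sun2, -0.31 to 0.25 for Syne1, -0.083 to 1.01 for Emd and -0.078 to 0.52 for Lbr. The cause was not tested. The labels give each sum a sort number and a plate. All sums of sort 2 shared a plate, and in sort 1 the gates of a genotype shared one. What else same-numbered sums share is not labelled. Deviations of same-numbered sums correlated at 0.136 between genotypes in Cd31+, 0.0720 in Cd31-, and 0.0640 (WT) and 0.0439 (KO) between gates. The main fits used no block. As an alternative the block was the sort number, or genotype with sort for the gate comparison and the interaction. It kept the 4 gate calls among the members and changed no other member call (Sun2 edgeR adjusted p = 0.0110, Syne1 0.0426). The alternatives with smooth muscle-like wells and without the deepest wells were chosen after seeing the data.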

Other observations

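In the KO Cd31+ wells the reporter was not uniform, and the members can be read in wells with and without an EYFP count, which are not labelled groups and were not tested. In sort 1, 231 wells had an EYFP count and 71 had none, and in sort 2, 76 had one and 13 had none. Lbr stood at 199 CPM in wells with EYFP and 136 CPM in wells without in sort 1, and at 230.5 and 109 CPM in sort 2. Sun1 stood at 153 and 101 CPM in sort 1 and at 139 and 92.7 CPM in sort 2, so both genes were higher in wells with EYFP in both sorts. Lmnb2 stood at 6.04 and 2.49 CPM in sort 1, with a count in 6.93% and 7.04% of the wells. In sort 2 it stood at 4.10 CPM in wells with EYFP. It had no count in the 13 wells without, too few to read a direction from. Sun2 was lower in wells with EYFP in both sorts, at 110.0 and 126 CPM in sort 1 and 77.0 and 114 CPM in sort 2, and the other members differed in direction between the sorts. Lmna stood at 147 and 130.2 CPM in sort 1 but at 112 and 363 CPM in sort 2, where the wells without EYFP were 13. A missing EYFP count in a shallow well does not show that the cell had not recombined. By markers 11 of the 302 wells of sort 1 and 2 of the 89 of sort 2 were smooth muscle- or fibroblast-like. The Cd31- gate had no EYFP count. Whether the wells without EYFP held more of such wells, and their part in these values, was not tested.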
